A study of Homo sapiens with 9 samples.

Results

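The genes of the proteasome described here are the GENCODE rows of a count table whose symbol is PSMA, PSMB, PSMC, PSMD, PSME, PSMF or PSMG followed by a number. There were 50 such rows with 48 distinct symbols among the 112171 features of the table, and 57820 of those features are GENCODE rows. By letter there were 10 PSMA, 11 PSMB, 6 PSMC, 14 PSMD, 4 PSME, 1 PSMF and 4 PSMG rows. The counts came from PANC-1, an established human line from a pancreatic ductal carcinoma, held under hypoxia for 12 h in medium with 42 nM rakicidin A, a cyclic lipodepsipeptide of bacterial origin, with 41 nM of BE-43547A1, or with 0.04% of the solvent DMSO, in 3 libraries per group. All 9 libraries were therefore hypoxic, none came from cells in normal oxygen, the doses of the compounds differed slightly, and the labels do not state how much solvent the compound medium held. Nothing says that replicate libraries derive from separate cultures, so the p-values rest on a spread between libraries that could be technical.

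The proteasome degrades proteins tagged with ubiquitin. Its core is a barrel of outer alpha rings (PSMA) and inner beta rings (PSMB), and the beta rings hold the catalytic sites. A regulatory particle of ATPases (PSMC) and non-ATPase lid and base subunits (PSMD) binds, unfolds and feeds in the substrate, other activators (PSME) can take its place, PSMF1 binds the core, and dedicated chaperones (PSMG, PSMD5, PSMD9 and PSMD10) assist assembly. In human cells with an impaired proteasome, the transcription factor NFE2L1 is known to raise proteasome genes through antioxidant response elements in their promoters, with small MAF proteins as partners and BACH1 as a repressor that binds similar elements.

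Promoter sequences are shown for 6 members because each holds a match to that element and a measured change described below. They were picked after the matches and the values were seen. Each is a stretch of 49 bases before the start site, from RefSeq on build GRCh38.p14, written along the gene's strand with the match in capitals. The stretch for PSME4 holds the motif on the opposite strand. The windows are PSMA4 at chr15:78540640-78540688 on the plus strand, PSMD3 at chr17:39980750-39980798 on the plus strand, PSMD5 at chr9:120843028-120843076 on the minus strand, PSMD12 at chr17:67366714-67366762 on the minus strand, PSME4 at chr2:53970999-53971047 on the minus strand and PSMG1 at chr21:39183606-39183654 on the minus strand.
PSMA4: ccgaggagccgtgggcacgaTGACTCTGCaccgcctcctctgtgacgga
PSMD3: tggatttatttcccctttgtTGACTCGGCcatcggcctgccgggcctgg
PSMD5: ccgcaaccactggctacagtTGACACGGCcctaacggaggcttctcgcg
PSMD12: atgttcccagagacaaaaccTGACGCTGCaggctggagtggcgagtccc
PSME4: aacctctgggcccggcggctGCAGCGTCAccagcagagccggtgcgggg
PSMG1: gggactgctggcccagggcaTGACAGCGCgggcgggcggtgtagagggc
The motif searched was TGACNNNGC on both strands of the 250 bases before and 50 bases after each start. It occurred in 15 of 51 promoters of 42 members (29.4%) and in 4687 of 35116 promoters in all (13.3%). CCAAT, which also begins the ER stress element, occurred in 20 of the 51 (39.2%), against 34.6% of all promoters. A heat shock element and an ER stress element occurred in 0 of the 51 windows, and in 0.490% and 0.0769% of all promoters. The ATF4 element TGATGNAA occurred in 1, that of PSMF1, against 3.62% of all. These are matches of letters in a window. The elements shown stand before genes that rose (PSME4, PSMD3, PSMD12), a gene that fell (PSMA4), a gene that fell with BE-43547A1 (PSMG1) and a gene that moved in opposite directions with the compounds (PSMD5).

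Counts on features came to 26203326 to 34870860 in rakicidin A libraries, 39807220 to 45048999 in BE-43547A1 libraries and 27696394 to 30596594 in DMSO libraries. All 6 epithelial markers checked (KRT7, KRT8, KRT18, KRT19, EPCAM and CDH1) reached a mean of 1 CPM (a count scaled to library size) in every group. Their summed level was 2428 to 2544 CPM with rakicidin A, 3375 to 3638 CPM with BE-43547A1 and 2847 to 3049 CPM with DMSO. The summed level of 6 leukocyte markers stayed at or below 4.43 CPM, with CD3E at 0 in all groups, that of 5 fibroblast markers at or below 12.6 CPM, of the 2 endothelial markers with a row at or below 0.270 CPM and of 3 acinar markers at or below 0.0639 CPM. DMSO replicate 3 had 0.520% of its counts on mitochondrial genes, while its fellows had 0.287% and 0.334% and the compound libraries 0.247 to 0.319%. Results were recomputed without this library, and the calls that changed are named below. In bulk RNA, fewer cells of a type and less RNA per cell cannot be told apart.

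Of the 50 rows, 46 had enough counts to be tested, each with a distinct symbol. The 4 others were PSMA8, the form of an alpha subunit made in testis, PSMB11, the thymic beta subunit, and a second row each for PSMA1 and PSMA2 that overlaps a neighbouring gene, and their highest count in any library was 14. The proteasome rows took 0.816 to 0.825% of all counts with rakicidin A, 0.818 to 0.838% with BE-43547A1 and 0.792 to 0.829% with DMSO, so their overall share overlapped between groups. Without PSMC4 the shares were 0.504 to 0.511% with rakicidin A, 0.495 to 0.512% with BE-43547A1 and 0.546 to 0.578% with DMSO. The share of the other proteasome genes was thus lower in every compound library than in any DMSO library. These are shares of total counts, a scale on which the typical feature was also lower with the compounds. With rakicidin A the median log2 fold change on that scale was -0.24 for the tested members and -0.38 for all features. With BE-43547A1 the medians were -0.16 and -0.24.

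Most proteasome genes moved by less than 1.5-fold in a transcriptome where many genes moved further. With rakicidin A against DMSO, 21 of 46 members were higher, 5 were lower and 20 did not pass (edgeR quasi-likelihood test, Benjamini-Hochberg adjusted p below 0.05 over 22353 features), so 56.5% passed, against 64.7% of all features. Among all features 31.9% were higher and 32.7% lower. With BE-43547A1 against DMSO, 15 members were higher, 12 were lower and 19 did not pass, so 58.7% passed, against 70.4% of all features (35.3% higher and 35.1% lower). A change of at least 1.5-fold was found for 4 members with rakicidin A (8.70%, against 48.7% of all features) and for 6 with BE-43547A1 (13.04%, against 51.4%). The libraries of the 2 groups did not overlap for 63.0% of members with rakicidin A, against 67.5% of all features, and for 60.9% with BE-43547A1, against 71.6%.

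The median log2 fold change of the members was 0.12 with rakicidin A, beside -0.02 over all features, and 0.08 with BE-43547A1, beside -0.00026 over all features. Since low counts give large fold changes, the same shares were taken over the 9140 features with a mean of at least 10 CPM, a limit chosen after the values were seen. Among the 42 members above it, 57.1% passed with rakicidin A, against 77.1% of such features: 45.2% were higher with rakicidin A, against 45.4% of such features, 11.9% were lower, against 31.7%, and 9.52% moved at least 1.5-fold, against 36.6%. With BE-43547A1, 61.9% of these members passed, against 77.1% of such features: 33.3% were higher, against 38.9% of such features, 28.6% were lower, against 38.2%, and 11.9% moved at least 1.5-fold, against 35.4%.

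These directions rest on the scaling of the libraries by TMM, which centres the features. With total counts alone, 3 members were higher and 29 lower with rakicidin A, and 5 were higher and 23 lower with BE-43547A1. The median over all features was then -0.38 with rakicidin A and -0.24 with BE-43547A1, and the members' median stood 0.144 and 0.0794 above it, beside 0.144 and 0.0797 under TMM. A change below is therefore relative to the rest of the transcriptome. Leaving out DMSO replicate 3, the library with the highest mitochondrial share, changed 18 member calls. With rakicidin A, 11 members were then lower instead of 5, through PSMA6 (-0.28), PSMA7 (-0.17), PSMB3 (-0.20), PSMB8 (-0.23), PSMD10 (-0.20) and PSMG1 (-0.13), and 20 were higher, with PSMB2 (0.28) and PSMF1 (0.17) gained and PSMB1, PSMB4 and PSMB10 lost. With BE-43547A1, PSMB2 then passed as higher (0.28) and PSMD6 as lower (-0.15), and PSMD4 was lost. Between the compounds, PSMB1 (0.12), PSMD10 (0.14) and PSMD14 (0.16) then passed as higher with rakicidin A and PSMB7 (-0.12) as lower. The labels do not state whether strand was used in counting, and 23 of the 46 tested members showed no exon that overlaps another gene in GENCODE v29. PSMB3 is among these 23 only because it had no entry there, so its overlap was not examined. Overlaps are not named for every member below. Exons of PSMB10 and PSMD9 overlap another gene on the same strand, and those of PSMG2 and PSME2 overlap genes on the opposite strand.

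**Figure D1:**
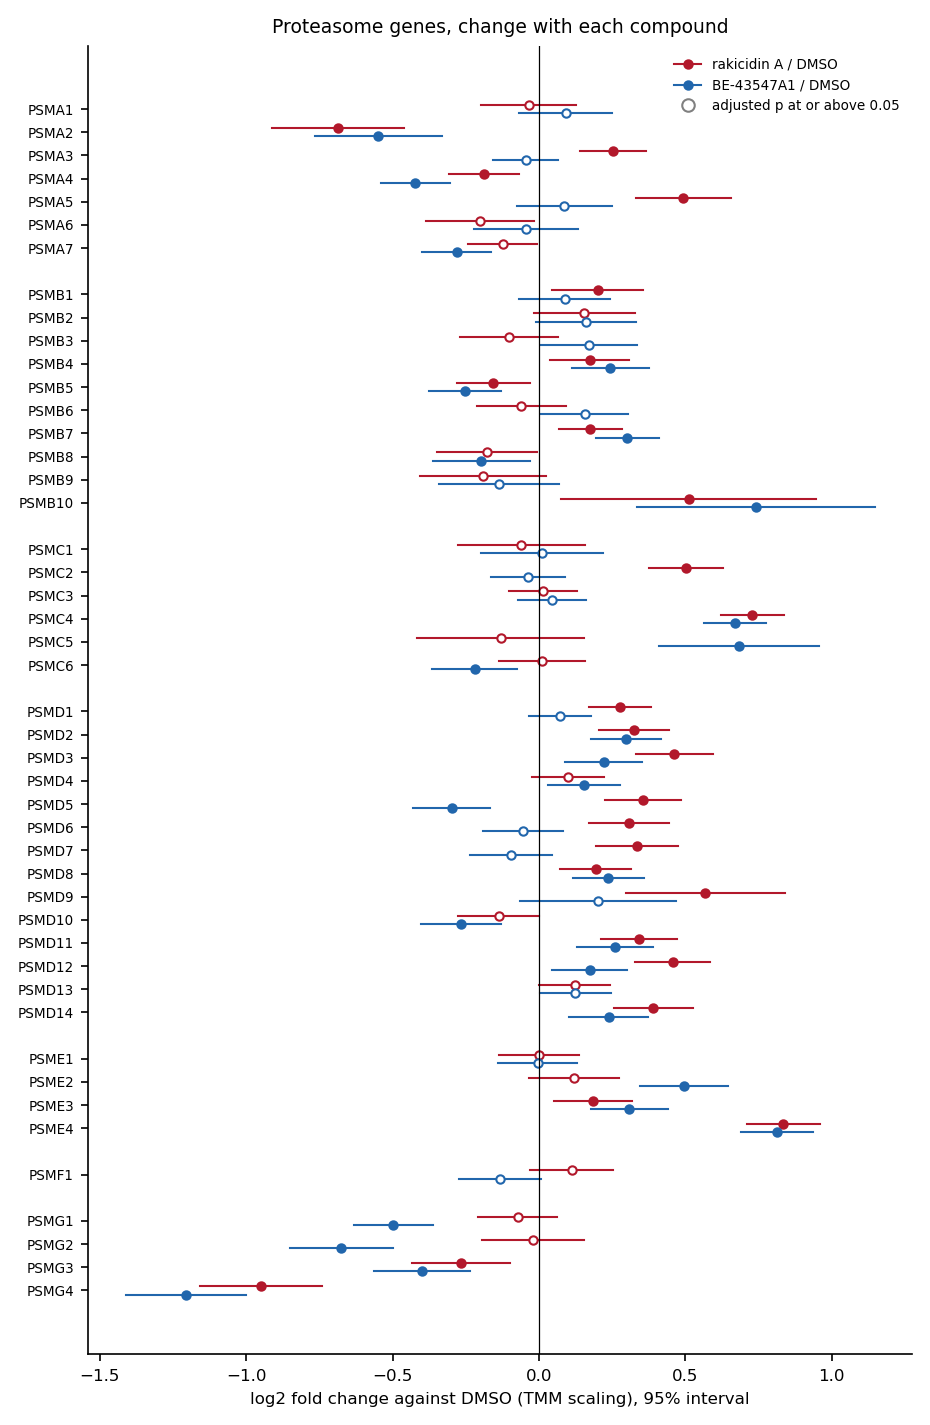
Log2 fold change of each of the 46 tested proteasome genes against DMSO (x axis, TMM scaling) with its 95% interval, rakicidin A in red above BE-43547A1 in blue, grouped by letter. Filled points passed at adjusted p below 0.05. PSME4 and PSMC4 stand to the right and PSMG4 and PSMA2 to the left with both compounds, and PSMD5 lies on opposite sides of 0; with total counts alone 29 and 23 members are lower, and PSMD5 is at -0.0034 with rakicidin A.

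The alpha ring genes did not move together. Of 7 tested, 2 rose and 2 fell with rakicidin A (median -0.12), and 0 rose and 3 fell with BE-43547A1 (median -0.05); with total counts alone 0 rose and 5 fell with each. Among all features 31.9% were higher and 32.7% lower with rakicidin A, and 35.3% and 35.1% with BE-43547A1. PSMA2 had 9.61, 11.03 and 10.4 CPM with rakicidin A, 13.4, 10.1 and 10.6 CPM with BE-43547A1 and 17.97, 16.6 and 15.4 CPM with DMSO. All 6 compound libraries were below the 3 DMSO libraries. Its log2 fold change was -0.69 ± 0.11 with rakicidin A (SE, edgeR adjusted p = 1.71e-05) and -0.55 ± 0.10 with BE-43547A1 (edgeR adjusted p = 0.00011). Its exons overlap MRPL32 on the other strand.

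PSMA4 had 398, 398 and 400 CPM with rakicidin A, 328, 336 and 354 CPM with BE-43547A1 and 459, 481 and 423 CPM with DMSO. The 3 groups did not overlap, and BE-43547A1 was lowest. The fall was -0.42 ± 0.06 with BE-43547A1 (edgeR adjusted p = 2.58e-06) and -0.19 ± 0.06 with rakicidin A (edgeR adjusted p = 0.00747), the second of which did not pass without DMSO replicate 2 (-0.14, adjusted p = 0.0552). PSMA7, highest of the letter per length at 131 CPM per kilobase of exons in DMSO, fell with BE-43547A1 (-0.28 ± 0.06, edgeR adjusted p = 0.000213), with 190, 184 and 191 CPM, against 229, 245 and 213 CPM with DMSO.

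PSMA5 and PSMA3 rose with rakicidin A, did not pass with BE-43547A1 and differed between the compounds (0.41 for PSMA5, 0.30 for PSMA3, edgeR adjusted p = 0.00027 and 0.000141). PSMA5 had 209, 195 and 205 CPM with rakicidin A, 163, 148 and 148 CPM with BE-43547A1 and 164, 143 and 125 CPM with DMSO. Every rakicidin A library was above the others, while those with BE-43547A1 and DMSO overlapped. The rise was 0.49 ± 0.08 (edgeR adjusted p = 1.74e-05), and PSMA3 rose by 0.25 ± 0.05 (edgeR adjusted p = 0.000383). With total counts alone the value for PSMA5 was 0.14 and that for PSMA3 turned to -0.11, and neither passed.

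PSMA1 passed in neither comparison with DMSO, with log2 fold changes of -0.03 with rakicidin A and 0.09 with BE-43547A1. PSMA6 needs care because 4 annotated pseudogenes held 68.3% of the counts assigned to it and them together. Alone it was at -0.20 with rakicidin A (edgeR adjusted p = 0.0505) and -0.04 with BE-43547A1 (edgeR adjusted p = 0.651). With the pseudogene counts added it was at -0.01 (edgeR adjusted p = 0.929) and 0.28 (edgeR adjusted p = 0.00211). The same addition, made after seeing the data, left PSMA2 at -0.71 with rakicidin A and -0.52 with BE-43547A1.

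Of the 3 constitutive catalytic subunits of the beta ring, PSMB7 rose, PSMB5 fell and PSMB6 did not pass with each compound, while with total counts alone all 3 were lower with rakicidin A. PSMB5, which carries the chymotrypsin-like site, had 59.4, 55.3 and 59.9 CPM with rakicidin A, 55.1, 54.8 and 53.1 CPM with BE-43547A1 and 68.4, 62.0 and 64.0 CPM with DMSO. Both compounds were below DMSO in every library, by -0.16 ± 0.06 with rakicidin A (edgeR adjusted p = 0.0271) and -0.25 ± 0.06 with BE-43547A1 (edgeR adjusted p = 0.000778). The first of these did not pass without any rakicidin A library, BE-43547A1 replicate 2 or 3 or DMSO replicate 1 (edgeR adjusted p = 0.0526 to 0.201; -0.10 without rakicidin A replicate 2). PSMB7, with the trypsin-like site, had 162, 156 and 155 CPM with rakicidin A, 170, 175 and 172 CPM with BE-43547A1 and 144, 140 and 136 CPM with DMSO. It was above DMSO in all 6 compound libraries (0.18 ± 0.05 with rakicidin A, edgeR adjusted p = 0.00579; 0.30 ± 0.05 with BE-43547A1, edgeR adjusted p = 3.66e-05), but with total counts alone its value turned to -0.18 with rakicidin A and was 0.06 with BE-43547A1.

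PSMB6, with the caspase-like site, overlapped DMSO with both compounds. It had 44.0, 44.0 and 43.0 CPM with rakicidin A, 56.2, 49.1 and 46.8 CPM with BE-43547A1 and 49.3, 44.3 and 43.0 CPM with DMSO. The differences were -0.06 ± 0.07 and 0.16 ± 0.07 (edgeR adjusted p = 0.488 and 0.059), and they did not pass. Among the other structural beta subunits, PSMB4 rose by 0.17 with rakicidin A (edgeR adjusted p = 0.0235) and 0.24 with BE-43547A1 (edgeR adjusted p = 0.00212), and PSMB1 by 0.20 with rakicidin A (edgeR adjusted p = 0.0238). The rakicidin A values of these 2 genes did not pass without DMSO replicate 3 (0.12 for PSMB4, 0.10 for PSMB1), that of PSMB4 without DMSO replicate 2 (0.15) or that of PSMB1 without rakicidin A replicate 2 (0.20). PSMB2 (0.15 with rakicidin A and 0.16 with BE-43547A1) and PSMB3 (-0.10 and 0.17) did not pass against DMSO with all libraries, but without DMSO replicate 3 PSMB2 was higher with both compounds (0.28 in each case) and PSMB3 lower with rakicidin A (-0.20). PSMB1 was the highest beta gene per length, at 99.1 CPM per kilobase in DMSO, with 253, 262 and 256 CPM with rakicidin A, 247, 234 and 232 CPM with BE-43547A1 and 251, 228 and 191 CPM with DMSO.

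The inducible catalytic subunits, which replace the constitutive ones in the immunoproteasome, were low and did not share a direction. PSMB8, the counterpart of PSMB5, had 16.2, 15.8 and 16.1 CPM with rakicidin A, 16.1, 15.6 and 15.7 CPM with BE-43547A1 and 20.2, 17.3 and 16.9 CPM with DMSO. It was lower with BE-43547A1 (-0.20 ± 0.08, edgeR adjusted p = 0.0325), which did not pass without any BE-43547A1 library or DMSO replicate 1 (edgeR adjusted p = 0.0717 to 0.197; -0.12 without DMSO replicate 1), and stood at -0.18 ± 0.08 with rakicidin A (edgeR adjusted p = 0.0642). PSMB9, the counterpart of PSMB6, had 7.42, 6.46 and 7.69 CPM with rakicidin A, 7.76, 7.41 and 7.14 CPM with BE-43547A1 and 8.80, 7.96 and 7.79 CPM with DMSO. The compound libraries were all below DMSO, and the differences did not pass (-0.19 with rakicidin A and -0.14 with BE-43547A1, edgeR adjusted p = 0.11 and 0.22). The exons of PSMB8 and PSMB9 overlap on opposite strands.

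PSMB10, the counterpart of PSMB7, was among the lowest members, at 0.818 CPM per kilobase in DMSO. It had 2.69, 1.69 and 2.10 CPM with rakicidin A, 2.61, 2.10 and 2.88 CPM with BE-43547A1 and 1.59, 1.71 and 1.25 CPM with DMSO. BE-43547A1 did not overlap DMSO, and rakicidin A did. The rise was 0.74 ± 0.19 with BE-43547A1 (edgeR adjusted p = 0.00222), and 0.51 ± 0.21 with rakicidin A (edgeR adjusted p = 0.0379), which did not pass without rakicidin A replicate 1 or 3 or DMSO replicate 1 or 3 (0.33 without rakicidin A replicate 1). Log2 ratios of each inducible subunit to its counterpart, and of PSME1 and PSME2 to PSME3, were compared in 15 exact two-sided permutation tests of 3 against 3 libraries. The smallest p such a design allows is 0.1, and the lowest adjusted p was 0.375, so none passed. The ratio of PSMB9 to PSMB6 averaged -2.76 ± 0.08 with BE-43547A1 and -2.47 ± 0.01 with DMSO (SD, n = 3 each; exact permutation p = 0.1), without overlap. That of PSME1 to PSME3 averaged -0.61 ± 0.12 with BE-43547A1 and -0.30 ± 0.15 with DMSO, also without overlap (exact permutation p = 0.1). That of PSME2 to PSME3 did not overlap between the compounds, at -0.47 ± 0.18 with rakicidin A and -0.21 ± 0.07 with BE-43547A1 (exact permutation p = 0.1).

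Of the 6 ATPase genes, 2 rose and 0 fell with rakicidin A, against 31.9% and 32.7% of all features, and 2 rose and 1 fell with BE-43547A1, against 35.3% and 35.1%; with total counts alone 2 rose and 4 fell with each. PSMC4 was the 1 that rose with both. PSMC4 had 3499, 3503 and 3514 CPM with rakicidin A, 3297, 3435 and 3360 CPM with BE-43547A1 and 1993, 2213 and 2136 CPM with DMSO. The compound libraries all lay above the DMSO libraries, with a spread within the rakicidin A group that was small beside the difference. The rise was 0.73 ± 0.05 with rakicidin A (edgeR adjusted p = 3.29e-10) and 0.67 ± 0.05 with BE-43547A1 (edgeR adjusted p = 1.04e-09). With total counts alone it was 0.37 and 0.43.

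PSMC4 also stood apart in level. In DMSO it had 886 CPM per kilobase of exons, against 101 for PSMC3, 62.6 for PSMC2 and 1.19 for PSMC1. The PSMC1 level leaves out 13 pseudogene rows, which held 95.5% of the counts assigned to it and them together. PSMC4 ranked at place 3 of 11378 protein-coding genes with a mean of at least 1 CPM, whose median was 5.44 CPM per kilobase. PANC-1 is known to carry extra copies of a part of the long arm of chromosome 19 on which PSMC4 lies; copy number was not measured here. Its 15 coding neighbours on each side in GENCODE v29 were examined after its level was seen. Of the 30, 29 had a row and 21 a mean of at least 1 CPM, and 6 of these lay above the 95th percentile of coding genes per length in DMSO, namely RPS16, SUPT5H, TIMM50, EID2, FBL and AKT2. Of the 21, 8 were higher and 8 lower with rakicidin A (38.1% each way, against 31.9% and 32.7% of all features; median log2 fold change 0.01). With BE-43547A1 13 were higher and 6 lower (61.9% and 28.6%, against 35.3% and 35.1% of all features; median 0.35). Whether copy number has a part in the rise of PSMC4 was not tested.

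**Figure D2:**
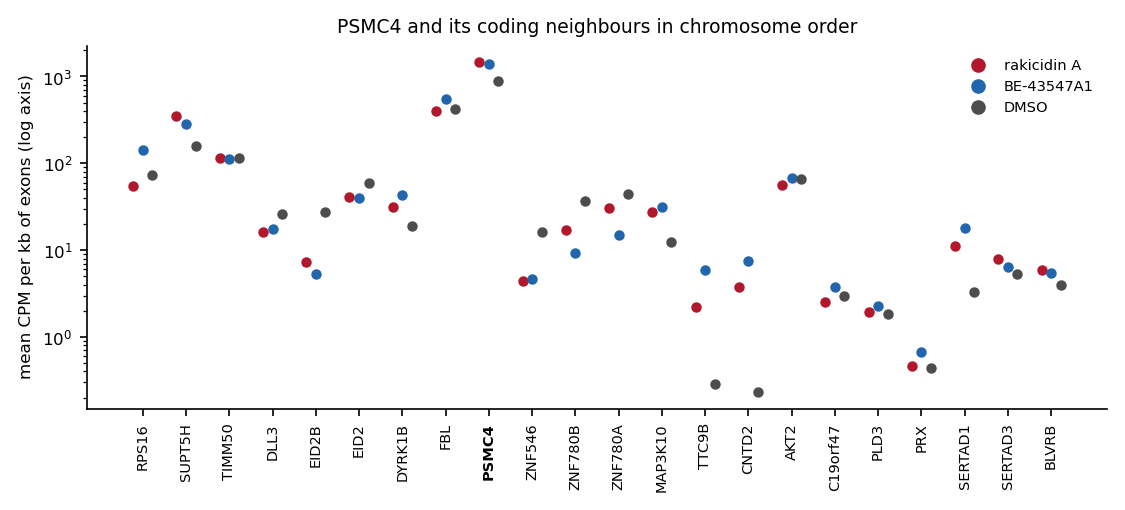
Mean CPM per kilobase of exons (log axis) of PSMC4 and its 21 coding neighbours with a mean of at least 1 CPM, in chromosome order, in rakicidin A (red), BE-43547A1 (blue) and DMSO (grey). PSMC4 is the highest at 886 in DMSO, followed by FBL, and 6 neighbours lie above the 95th percentile of coding genes.

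PSMC2 rose with rakicidin A and did not pass with BE-43547A1. It had 328, 298 and 317 CPM with rakicidin A, 209, 219 and 222 CPM with BE-43547A1 and 230, 232 and 205 CPM with DMSO. The rakicidin A libraries were above all others, while BE-43547A1 and DMSO overlapped. The log2 fold change was 0.50 ± 0.06 with rakicidin A (edgeR adjusted p = 6.47e-07) and -0.04 ± 0.06 with BE-43547A1 (edgeR adjusted p = 0.591).

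PSMC5 showed the reverse order. It had 25.4, 28.04 and 25.7 CPM with rakicidin A, 47.8, 49.98 and 41.6 CPM with BE-43547A1 and 24.5, 23.5 and 38.6 CPM with DMSO. DMSO replicate 3 was well above its fellows, yet below every BE-43547A1 library. The rise with BE-43547A1 was 0.68 ± 0.13 (edgeR adjusted p = 0.000127; 0.55 to 0.94 with any library left out, highest without DMSO replicate 3). Its exons overlap FTSJ3 on the other strand. PSMC6 fell with BE-43547A1 (-0.22 ± 0.07, edgeR adjusted p = 0.00851) although the groups overlapped, and did not pass without BE-43547A1 replicate 1 or 2 or DMSO replicate 2 (-0.18, -0.16 and -0.17). PSMC3 did not pass with either compound, and neither did PSMC1, for which 13 pseudogene rows held 95.5% of the counts assigned to it and them together.

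**Figure D3:**
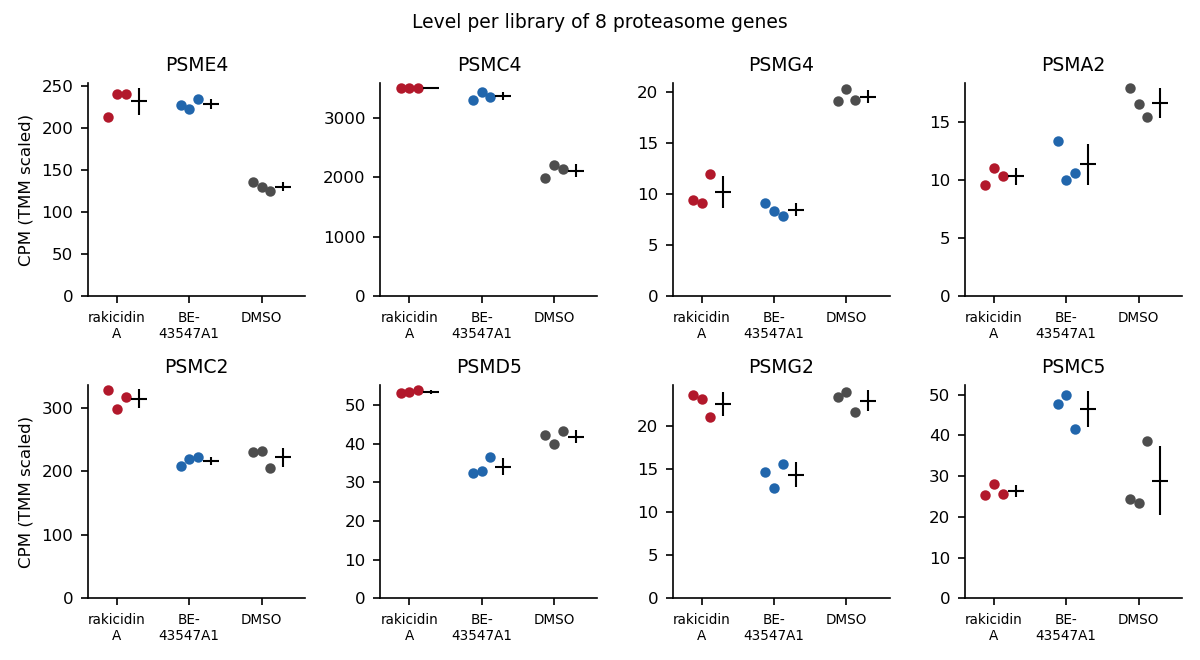
CPM (TMM scaled, y axes from 0) of 8 proteasome genes in each library of rakicidin A (red), BE-43547A1 (blue) and DMSO (grey), with the group mean and SD as a black mark beside the points. PSME4 and PSMC4 are above DMSO, and PSMG4 and PSMA2 below it, in all 6 compound libraries; PSMC2 and PSMD5 are highest with rakicidin A, PSMG2 lowest and PSMC5 highest with BE-43547A1.

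Of the 11 non-ATPase genes of lid and base, 9 rose and 0 fell with rakicidin A (median 0.32), where 31.9% of all features were higher and 32.7% lower, and 7 rose and 0 fell with BE-43547A1 (median 0.17), against 35.3% and 35.1% of all features; with total counts alone 0 rose and 3 fell with each, and the medians were -0.03 and -0.07, still above the all-feature medians of -0.38 and -0.24. PSMD3, a lid subunit, had 196, 169 and 170 CPM with rakicidin A, 153, 151 and 148 CPM with BE-43547A1 and 131, 135 and 123 CPM with DMSO. The 3 groups did not overlap. The rise was 0.46 ± 0.06 with rakicidin A (edgeR adjusted p = 3.14e-06) and 0.22 ± 0.06 with BE-43547A1 (edgeR adjusted p = 0.00408).

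PSMD14, the deubiquitinase of the lid, had 300, 311 and 309 CPM with rakicidin A, 270, 276 and 282 CPM with BE-43547A1 and 250, 245 and 207 CPM with DMSO. It rose with rakicidin A (0.39 ± 0.06, edgeR adjusted p = 3.3e-05) and with BE-43547A1 (0.24 ± 0.06, edgeR adjusted p = 0.00299; 0.15 without DMSO replicate 3). The difference between the compounds did not pass with all libraries (0.15, edgeR adjusted p = 0.0602). PSMD12 rose by 0.46 ± 0.06 with rakicidin A (edgeR adjusted p = 2.47e-06) and 0.17 ± 0.06 with BE-43547A1 (edgeR adjusted p = 0.0164), the second value not passing without DMSO replicate 1 or 2 (0.14 and 0.12). PSMD2, the large base scaffold, rose by 0.32 and 0.30, PSMD11 by 0.34 and 0.26 and PSMD8 by 0.19 and 0.24 with rakicidin A and BE-43547A1, and each passed in both.

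PSMD1, PSMD6 and PSMD7 rose with rakicidin A, did not pass with BE-43547A1 and differed between the compounds (0.20, 0.36 and 0.43, edgeR adjusted p = 0.00276, 0.000156 and 3.9e-05). PSMD1, the other large base scaffold and the highest of the letter per length at 63.6 CPM per kilobase in DMSO, had 395, 410 and 393 CPM with rakicidin A, 340, 353 and 348 CPM with BE-43547A1 and 328, 338 and 324 CPM with DMSO. Its rise was 0.28 ± 0.05 with rakicidin A (edgeR adjusted p = 0.0001), beside 0.07 ± 0.05 with BE-43547A1 (edgeR adjusted p = 0.211). PSMD6 and PSMD7 rose by 0.31 and 0.33 with rakicidin A and stood at -0.06 and -0.10 with BE-43547A1. PSMD4, a ubiquitin receptor, rose with BE-43547A1 (0.15, edgeR adjusted p = 0.0244), which did not pass without BE-43547A1 replicate 2 or DMSO replicate 1 or 3 (0.11 to 0.15), and stood at 0.10 with rakicidin A; the compounds did not pass against each other (edgeR adjusted p = 0.449). PSMD13 passed with neither, at 0.12 in both.

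Of the 3 chaperones of the base, PSMD5 moved in opposite directions with the compounds. It had 53.0, 53.3 and 54.0 CPM with rakicidin A, 32.5, 33.0 and 36.5 CPM with BE-43547A1 and 42.2, 39.9 and 43.2 CPM with DMSO. The 3 groups were apart, with DMSO between the compounds. It rose with rakicidin A (0.35 ± 0.06, edgeR adjusted p = 6.33e-05) and fell with BE-43547A1 (-0.30 ± 0.06, edgeR adjusted p = 0.000325), and with total counts alone the rakicidin A value was -0.0034 and the BE-43547A1 value -0.54. PSMD9 rose with rakicidin A (0.57 ± 0.13, edgeR adjusted p = 0.000821) from a low level, with 4.84, 4.57 and 5.50 CPM, against 3.67, 3.16 and 3.18 CPM with DMSO, and did not pass with BE-43547A1 (0.20, edgeR adjusted p = 0.165). PSMD10 fell with BE-43547A1 (-0.27 ± 0.06, edgeR adjusted p = 0.00128) and stood at -0.14 with rakicidin A (edgeR adjusted p = 0.0729), and the compounds did not pass against each other (0.13, edgeR adjusted p = 0.115). Without DMSO replicate 3 it was lower with rakicidin A too (-0.20) and passed between the compounds (0.14).

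Among the activators, PSME4 had the largest rise of any member with rakicidin A and with BE-43547A1. PSME4, a large activator that caps the core without ATP, had 213, 241 and 241 CPM with rakicidin A, 228, 223 and 234 CPM with BE-43547A1 and 135, 129 and 125 CPM with DMSO. No compound library came near the DMSO libraries, and the compounds overlapped each other. The rise was 0.83 ± 0.06 with rakicidin A (edgeR adjusted p = 4.74e-10) and 0.81 ± 0.06 with BE-43547A1 (edgeR adjusted p = 6.18e-10), and 0.48 and 0.58 with total counts alone. Its exons overlap ACYP2 on the other strand.

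The other activators form rings that dock to the core, PSME1 with PSME2 in a ring induced by interferon and PSME3 in a nuclear one. PSME2 had 51.5, 43.8 and 48.5 CPM with rakicidin A, 63.9, 61.9 and 60.5 CPM with BE-43547A1 and 45.4, 47.2 and 39.6 CPM with DMSO. The BE-43547A1 libraries were above all others, and it rose with that compound (0.50 ± 0.07, edgeR adjusted p = 6e-06) while rakicidin A overlapped DMSO (0.12 ± 0.07, edgeR adjusted p = 0.156). PSME1, the highest activator per length at 26.5 CPM per kilobase in DMSO, had 49.3, 47.1 and 45.4 CPM with rakicidin A, 45.3, 49.1 and 46.9 CPM with BE-43547A1 and 44.0, 51.0 and 46.9 CPM with DMSO. Its log2 fold change was 0.00071 with a 95% interval of -0.14 to 0.14 with rakicidin A, and -0.0047 with an interval of -0.14 to 0.13 with BE-43547A1. PSME3 rose with both compounds (0.19 with rakicidin A, edgeR adjusted p = 0.0157; 0.31 with BE-43547A1, edgeR adjusted p = 0.000249), and the rakicidin A value did not pass without rakicidin A replicate 2 or DMSO replicate 2 (0.16 in both cases).

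PSMF1, an inhibitor of the core in vitro, had 49.9, 50.3 and 49.1 CPM with rakicidin A, 43.6, 43.9 and 38.5 CPM with BE-43547A1 and 43.7, 44.8 and 49.7 CPM with DMSO. Both compounds overlapped DMSO, rakicidin A through DMSO replicate 3, and neither difference passed (0.11 with rakicidin A and -0.13 with BE-43547A1, edgeR adjusted p = 0.153 and 0.0846). Without that library PSMF1 passed as higher with rakicidin A (0.17).

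Of the 4 chaperones that assemble the core, 0 rose and 2 fell with rakicidin A (median -0.17), where 31.9% of all features were higher and 32.7% lower, and all 4 fell with BE-43547A1 (median -0.59), where 35.1% were lower; with total counts alone all 4 fell with each compound. PSMG4 had 9.43, 9.08 and 11.9 CPM with rakicidin A, 9.11, 8.33 and 7.84 CPM with BE-43547A1 and 19.1, 20.2 and 19.2 CPM with DMSO. The compound libraries were all below the DMSO libraries by a wide gap. The fall was -0.95 ± 0.10 with rakicidin A (edgeR adjusted p = 1.13e-07) and -1.21 ± 0.10 with BE-43547A1 (edgeR adjusted p = 2.63e-09). Its exons overlap SLC22A23 and TUBB2B on the other strand.

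PSMG2, which pairs with PSMG1 to scaffold the alpha ring, had 23.6, 23.2 and 21.0 CPM with rakicidin A, 14.7, 12.8 and 15.6 CPM with BE-43547A1 and 23.3, 23.9 and 21.6 CPM with DMSO. PSMG1 had 51.0, 52.1 and 50.6 CPM with rakicidin A, 39.0, 39.2 and 36.4 CPM with BE-43547A1 and 57.3, 55.2 and 49.3 CPM with DMSO. For both genes the BE-43547A1 libraries were below all others, and rakicidin A overlapped DMSO. With BE-43547A1 PSMG2 fell by 0.67 on the log2 scale (SE 0.08, edgeR adjusted p = 8.33e-07) and PSMG1 by 0.50 (SE 0.06, edgeR adjusted p = 1.41e-06). With rakicidin A the values were -0.02 for PSMG2 and -0.07 for PSMG1 and did not pass with all libraries. Without DMSO replicate 3 PSMG1 passed as lower with rakicidin A (-0.13), and with total counts alone both did (-0.38 for PSMG2 and -0.43 for PSMG1).

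PSMG3, the partner of PSMG4, had 21.0, 21.0 and 21.8 CPM with rakicidin A, 18.2, 20.2 and 19.7 CPM with BE-43547A1 and 27.2, 26.9 and 22.7 CPM with DMSO. It was lower in every compound library, by -0.27 ± 0.08 with rakicidin A (edgeR adjusted p = 0.00685) and -0.40 ± 0.08 with BE-43547A1 (edgeR adjusted p = 0.00017). Per length in DMSO the 4 ranged from 21.4 CPM per kilobase for PSMG1 to 1.87 for PSMG4.

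**Figure D4:**
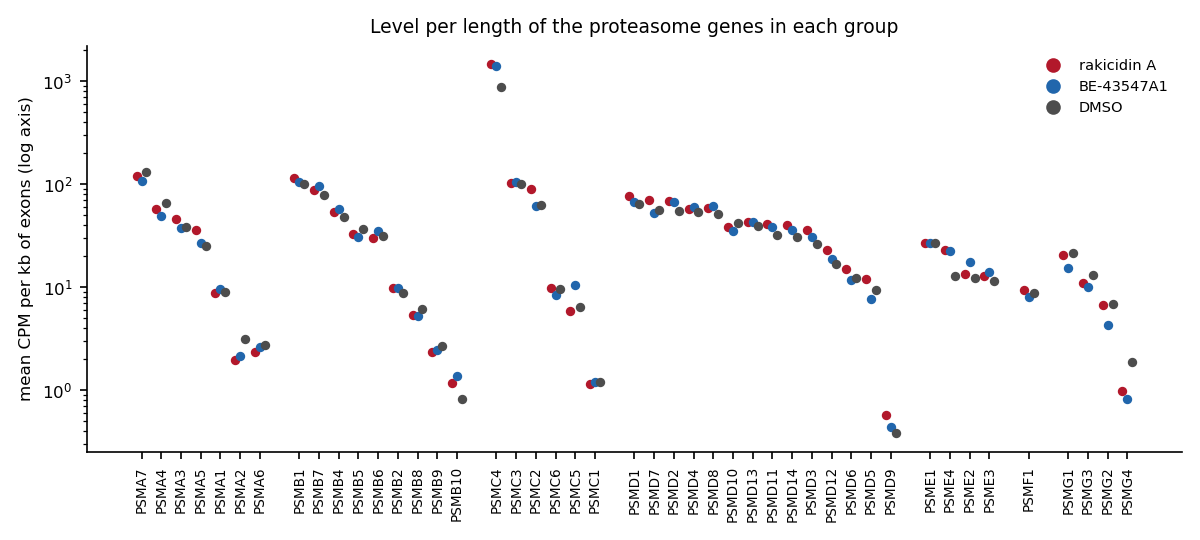
Mean CPM per kilobase of exons (log axis) of 45 tested proteasome genes with a length in GENCODE v29, by letter and ordered within a letter by the DMSO level, in rakicidin A (red), BE-43547A1 (blue) and DMSO (grey). PSMC4 lies at 886 in DMSO and the lowest gene, PSMD9, at 0.380.

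The compounds were then set against each other. Rakicidin A against BE-43547A1 gave 17 members higher, 4 lower and 25 not passing, so 45.7% passed, against 46.6% of all features (24.1% higher and 22.5% lower). With total counts alone 9 were higher and 12 lower, and the all-feature median was then -0.14. At least 1.5-fold separated the compounds for 3 members (6.52%, against 27.9% of all features), namely PSMG2, PSMD5 and PSMC5. The libraries did not overlap for 63.0% of members, against 57.6% of all features. Among the 42 members with a mean of at least 10 CPM, 47.6% passed, against 63.6% of features above that limit: 38.1% were higher with rakicidin A, against 43.9%, 9.52% were lower, against 19.7%, and 7.14% differed at least 1.5-fold, against 13.9%.

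The 17 genes higher with rakicidin A came from every letter but PSMB and PSME. PSMG2 differed by 0.66 ± 0.08 (edgeR adjusted p = 4.37e-06), PSMD5 by 0.65 ± 0.06 (edgeR adjusted p = 1.32e-07) and PSMC2 by 0.54 ± 0.06 (edgeR adjusted p = 7.96e-07). PSMD7, a lid subunit, had 190, 192 and 197 CPM with rakicidin A, 130, 152 and 148 CPM with BE-43547A1 and 143, 166 and 150 CPM with DMSO, and differed between the compounds by 0.43 ± 0.07 (edgeR adjusted p = 3.9e-05). PSMG1 differed by 0.43 ± 0.06 (edgeR adjusted p = 2.81e-05). Of 14 PSMD genes 7 were higher and 0 lower with rakicidin A, of 7 PSMA genes 4 and 0, and of 4 PSMG genes 3 and 0. Over all features 24.1% were higher and 22.5% lower. Among features with a mean of at least 10 CPM the shares were 43.9% and 19.7%. PSMF1 was higher (0.25 ± 0.07, edgeR adjusted p = 0.00583). With total counts alone the counts for PSMD, PSMA and PSMG became 4 and 2, 2 and 2, and 2 and 0, and PSMF1 did not pass.

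Genes lower with rakicidin A were PSMC5, PSME2, PSMB3 and PSMB6. PSMC5 differed by -0.81 ± 0.13 (edgeR adjusted p = 5.82e-05) and PSME2 by -0.37 ± 0.07 (edgeR adjusted p = 0.000313). PSMB3 had 46.2, 45.9 and 46.3 CPM with rakicidin A, 60.9, 55.0 and 51.7 CPM with BE-43547A1 and 52.5, 53.6 and 42.8 CPM with DMSO, a difference between the compounds of -0.28 ± 0.08 (edgeR adjusted p = 0.00783). PSMB6 differed by -0.22 ± 0.07 (edgeR adjusted p = 0.0198). For each of the 4 the compounds did not overlap.

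For PSME4 and PSMC4, which rose furthest with rakicidin A, the difference between the compounds did not pass. PSME4 differed by 0.02 between rakicidin A and BE-43547A1, with a 95% interval of -0.10 to 0.14 (edgeR adjusted p = 0.797), and PSMC4 by 0.06, with an interval of -0.05 to 0.17 (edgeR adjusted p = 0.355). PSMG4 passed narrowly (0.26 ± 0.10, edgeR adjusted p = 0.049) although its libraries overlapped, and did not pass without rakicidin A replicate 3 or BE-43547A1 replicate 2 or 3 (0.14, 0.25 and 0.21). Calls between the compounds that also rested on single libraries were PSMA7 (0.16, not passing without any rakicidin A library or BE-43547A1 replicate 1 or 2), PSMB6 (not passing without any rakicidin A library or BE-43547A1 replicate 1, at -0.14 without the last), PSMC6 (0.23, not passing without BE-43547A1 replicate 1 or 2) and PSMD9 (0.37, not passing without rakicidin A replicate 3 or BE-43547A1 replicate 2).

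Genes that act with the proteasome were described from 4 lists. Among features with a mean of at least 10 CPM, 45.4% were higher and 31.7% lower with rakicidin A. With BE-43547A1 38.9% and 38.2% of them were, and between the compounds 43.9% and 19.7%. Of 12 factors that bind the proteasome, 8 were higher and 1 lower with rakicidin A (median 0.32), against 31.9% and 32.7% of all features. With BE-43547A1 7 were higher and 3 lower (median 0.24), against 35.3% and 35.1% of all features. With total counts alone the counts of these factors became 5 and 4, and 4 and 4. ZFAND2A, a stress-induced protein of the regulatory particle, had 61.6, 58.0 and 68.2 CPM with rakicidin A, 34.9, 34.3 and 33.3 CPM with BE-43547A1 and 12.5, 11.4 and 9.97 CPM with DMSO. The groups were far apart, with log2 fold changes of 2.47 ± 0.08 with rakicidin A (edgeR adjusted p = 8.13e-15) and 1.60 ± 0.08 with BE-43547A1 (edgeR adjusted p = 4.72e-12). ZFAND5, an activator of the particle, rose by 0.79 and 0.96, and TXNL1, a bound thioredoxin, by 0.76 and 0.64.

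PAAF1, a chaperone of the base, was the 1 factor of the list that fell with rakicidin A. It had 9.498, 10.5 and 10.4 CPM with rakicidin A, 6.41, 6.25 and 5.65 CPM with BE-43547A1 and 20.5, 18.2 and 19.5 CPM with DMSO. The 3 groups did not overlap, and the falls were -0.94 ± 0.09 with rakicidin A (edgeR adjusted p = 2.04e-08) and -1.67 ± 0.09 with BE-43547A1 (edgeR adjusted p = 6.07e-12). UCHL5 (-0.24) and UBE3C (-0.15) also fell with BE-43547A1. POMP, the maturation factor of the core, rose with BE-43547A1 (0.36 ± 0.07, edgeR adjusted p = 0.000149) and did not pass with rakicidin A (-0.08, edgeR adjusted p = 0.314). Between the compounds 6 of the 12 were higher and 3 lower with rakicidin A, against 24.1% and 22.5% of all features. The 3 were POMP (-0.45), SHFM1 (-0.39) and ZFAND5 (-0.17). ZFAND5 did not pass without rakicidin A replicate 1 or 3 or any BE-43547A1 library, and was at -0.10 without rakicidin A replicate 1.

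Of 12 regulators of proteasome gene expression, 8 were higher and 1 lower with rakicidin A (median 0.59), against 31.9% and 32.7% of all features. With BE-43547A1 7 were higher and 5 lower (median 0.57), against 35.3% and 35.1% of all features. With total counts alone the counts of regulators became 6 and 4, and 7 and 5. NFE2L1, the factor named above, had 331, 320 and 307 CPM with rakicidin A, 287, 298 and 301 CPM with BE-43547A1 and 313, 319 and 343 CPM with DMSO. Rakicidin A overlapped DMSO and BE-43547A1 lay below it. Its mRNA did not pass with rakicidin A (-0.03 ± 0.06, edgeR adjusted p = 0.698) and was lower with BE-43547A1 (-0.14 ± 0.06, edgeR adjusted p = 0.0329), a call lost without any rakicidin A library, any BE-43547A1 library or DMSO replicate 3 (edgeR adjusted p = 0.0524 to 0.176). NFE2L1 activity is known to be set after translation, which RNA counts do not measure. NGLY1, the glycanase that activates the protein, fell with both (-0.58 with rakicidin A and -0.86 with BE-43547A1), and DDI2, its protease, rose with rakicidin A (0.27) and fell with BE-43547A1 (-0.17).

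The small MAF partners rose with both compounds. MAFF had 169, 170 and 166 CPM with rakicidin A, 215, 223 and 217 CPM with BE-43547A1 and 7.58, 7.55 and 8.18 CPM with DMSO. It was the largest rise of the list, by 4.43 ± 0.06 with rakicidin A (edgeR adjusted p = 1.16e-19) and 4.81 ± 0.06 with BE-43547A1 (edgeR adjusted p = 4.63e-20). MAFG rose by 1.57 and 1.80, the repressor BACH1 by 2.06 and 2.13, and SYVN1, a ubiquitin ligase that degrades NFE2L1, by 2.90 and 2.13 with rakicidin A and BE-43547A1. NFE2L2, a related factor, rose by 0.90 ± 0.05 with rakicidin A (edgeR adjusted p = 1.84e-11) and 0.70 ± 0.05 with BE-43547A1 (edgeR adjusted p = 6.9e-10). KEAP1 (-0.54), which holds NFE2L2 low, and HSF2 (-0.25) fell with BE-43547A1. Between the compounds 6 regulators were higher and 3 lower with rakicidin A, against 24.1% and 22.5% of all features. The 3 were MAFF (-0.38), MAFG (-0.23) and HSF1 (-0.18).

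**Figure D5:**
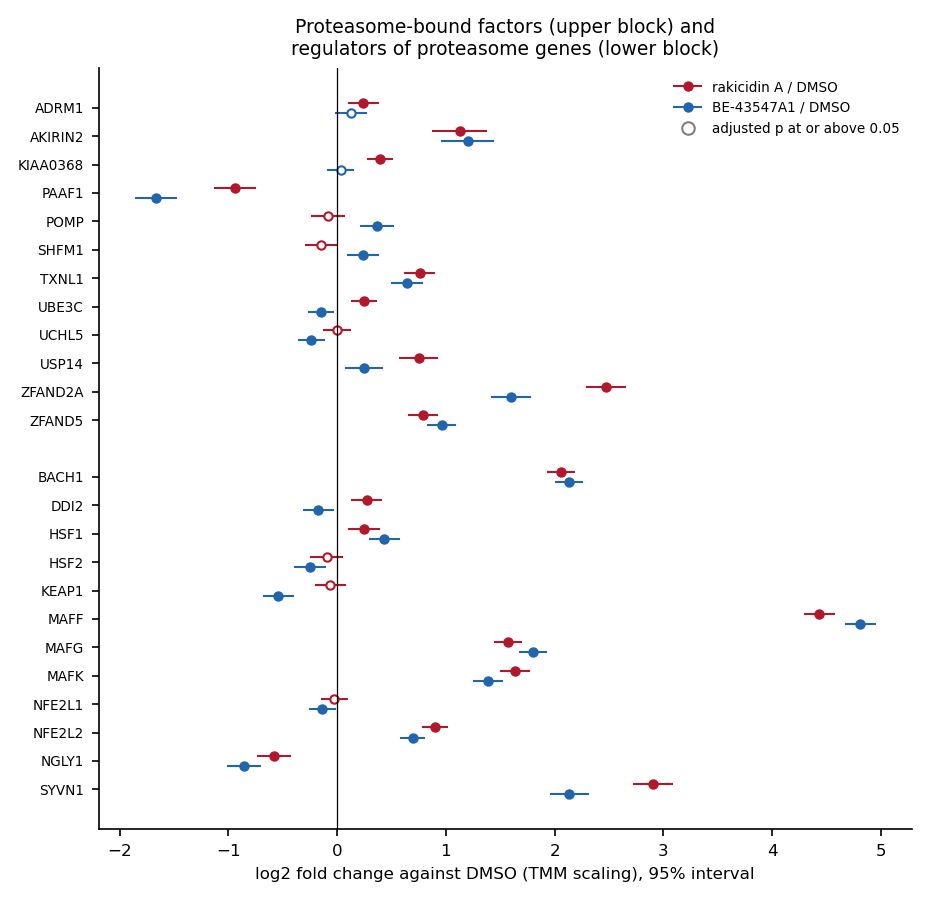
Log2 fold change against DMSO (x axis, TMM scaling) with its 95% interval for 12 factors bound to the proteasome (upper block) and 12 regulators of its genes (lower block), rakicidin A in red above BE-43547A1 in blue. MAFF lies furthest to the right at 4.43 and 4.81 and PAAF1 furthest to the left with BE-43547A1 at -1.67, while NFE2L1 lies near 0.

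Of 17 ubiquitin, activation and shuttle genes, 10 were higher and 1 was lower with rakicidin A, against 31.9% and 32.7% of all features. With BE-43547A1 13 were higher and 0 lower, against 35.3% and 35.1% of all features. The median of the list was 0.30 with each compound. With total counts alone the counts of these genes became 4 and 7, and 5 and 2. VCP, the segregase that extracts ubiquitin-tagged proteins, had 1293, 1212 and 1259 CPM with rakicidin A, 899.8, 860.3 and 885.2 CPM with BE-43547A1 and 766.4, 730.1 and 688.8 CPM with DMSO. The 3 groups did not overlap, and rakicidin A was highest. It rose by 0.78 ± 0.05 with rakicidin A (edgeR adjusted p = 3.15e-10) and 0.28 ± 0.05 with BE-43547A1 (edgeR adjusted p = 0.000175). Its cofactor UFD1L rose by 0.53 and 0.40 and FAF2, its membrane adaptor, by 0.89 and 0.61 with rakicidin A and BE-43547A1. Between the compounds 3 were higher with rakicidin A, VCP (0.51), FAF2 (0.29) and UBA6 (0.28), and 6 were lower, against 24.1% and 22.5% of all features.

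The interferon and antigen processing genes, which include known inducers of the immunoproteasome, moved without PSMB8 and PSMB9 rising. Of 15, 7 were higher and 1, ERAP2 (-0.43), was lower with rakicidin A (median 0.06), against 31.9% and 32.7% of all features. With BE-43547A1 7 were higher and 2, ERAP2 (-0.40) and NLRC5 (-0.61), were lower (median 0.09), against 35.3% and 35.1% of all features. With total counts alone the counts of these genes became 4 and 8, and 4 and 7. TAP1, a peptide transporter gene that neighbours PSMB9, had 89.7, 82.6 and 87.0 CPM with rakicidin A, 89.5, 87.6 and 83.5 CPM with BE-43547A1 and 55.2, 49.1 and 52.9 CPM with DMSO. It rose by 0.72 ± 0.06 with rakicidin A (edgeR adjusted p = 4.49e-09) and 0.73 ± 0.06 with BE-43547A1 (edgeR adjusted p = 3.08e-09), beside the PSMB9 values of -0.19 and -0.14 given above. IRF1, a transcription factor of immunoproteasome genes, rose by 0.49 ± 0.10 with rakicidin A (edgeR adjusted p = 0.000203) and 1.43 ± 0.09 with BE-43547A1 (edgeR adjusted p = 1.24e-10), and JAK1 rose by 0.78 and 0.33 and IRF2 by 0.66 and 0.45. Between the compounds 6 were higher and 3 lower with rakicidin A, against 24.1% and 22.5% of all features. The 3 were IRF1 (-0.93), IFNGR2 (-0.44) and B2M (-0.35).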

How the data were processed

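Total RNA was read in pairs of 76 bases on a NextSeq, per the labels' protocols. The submitters' processing notes name TopHat2, HTSeq, GRCh37 and hg19, while settings and strand use are not given in those notes. Each value in the deposited table is a raw count of a feature in a library. Summary entries without a gene, 5 in number, were left out; reads on no feature made up 16.4 to 20.8% and reads placed at several sites 19.1 to 22.4% of the total with these entries.

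The fit used edgeR 4.0.16 under R 4.3.3: filterByExpr, TMM, 1 mean per group over 9 libraries, a quasi-likelihood test and Benjamini-Hochberg adjustment over 22353 features at 0.05. A standard error is the absolute log2 change divided by the root of F. Levels are TMM-scaled CPM, log CPM uses a prior count of 2 and ratios 0.5. Lengths, overlaps and gene order came from GENCODE v29 (GRCh38), which is not the build of the counts; PSMB3 had no length there. Of 51 promoters, 48 were found at the start of a transcript of their gene.

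Members and lists were chosen with earlier results of these data known. Values per library are given for up to 5 largest passing, non-overlapping rises and falls per comparison, the catalytic and interferon-induced genes and the highest per length in each letter; further genes were added after their values were seen. From each list up to 4 genes were named by the product of both p-values against DMSO, with NFE2L1, NFE2L2, POMP and the genes of any direction with 5 or fewer. Of the genes these rules name, 2 are not reported here. The descriptions by neighbours, pseudogenes, promoter windows, 1.5-fold and 10 CPM were chosen after seeing the data. Alternatives were RLE size factors, total counts, no filter, DESeq2 1.42.0, limma-voom (limma 3.58.1), the 6 libraries of a comparison, a replicate block, mitochondrial and ribosomal genes left out, each library left out and, added later, pseudogene counts.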

Additional observations from a re-analysis of the deposited data

How the results depend on the processing

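Each comparison was recomputed under 18 alternatives. Total counts alone moved every count of members by more than 1.5 times: 3 higher and 29 lower for rakicidin A against DMSO, 5 and 23 for BE-43547A1 against DMSO, and 9 and 12 for rakicidin A against BE-43547A1. It turned the sign of 20 of 46 members for rakicidin A against DMSO, namely PSMA3 (-0.11), PSMB1 (-0.16), PSMB2 (-0.20), PSMB4 (-0.18), PSMB7 (-0.18), PSMC3 (-0.34), PSMC6 (-0.35), PSMD1 (-0.081), PSMD2 (-0.033), PSMD4 (-0.26), PSMD5 (-0.0034), PSMD6 (-0.049), PSMD7 (-0.023), PSMD8 (-0.16), PSMD11 (-0.017), PSMD13 (-0.24), PSME1 (-0.36), PSME2 (-0.24), PSME3 (-0.17) and PSMF1 (-0.25). For BE-43547A1 against DMSO it turned 14 members, PSMA1 (-0.14), PSMA5 (-0.15), PSMB1 (-0.15), PSMB2 (-0.076), PSMB3 (-0.064), PSMB6 (-0.080), PSMC1 (-0.23), PSMC3 (-0.19), PSMD1 (-0.17), PSMD3 (-0.016), PSMD4 (-0.083), PSMD9 (-0.035), PSMD12 (-0.065) and PSMD13 (-0.11). For rakicidin A against BE-43547A1 it turned 8 members, PSMB1 (-0.0080), PSMB5 (-0.023), PSMB8 (-0.10), PSMC4 (-0.061), PSMD2 (-0.093), PSMD11 (-0.038), PSME1 (-0.11) and PSME4 (-0.10), and also NFE2L1 (-0.0082) and TXNL1 (-0.0042). These shifts follow from the scaling, whose all-feature medians are given above.

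The value of PSME1, which lies at 0, also changed sign without a filter (-0.0089 for rakicidin A against DMSO, 0.0090 for BE-43547A1 against DMSO and -0.018 between the compounds), and for BE-43547A1 against DMSO with RLE size factors (0.0023), DESeq2 (0.0023) and the 6 libraries of the comparison (0.0010). PSMB8 between the compounds was at -0.0029 without a filter. The causes of the changes without a filter were not tested. With 1 library left out, members lower with rakicidin A against DMSO numbered 4 to 11, and the values ranged across 0 for NFE2L1 (-0.050 to 0.018), PSMB6 (-0.099 to 0.0035) and PSME1 (-0.046 to 0.061) with rakicidin A, PSMB1 (-0.021 to 0.17) and PSME1 (-0.060 to 0.047) with BE-43547A1, and PSMB9 (-0.093 to 0.029), PSME1 (-0.030 to 0.042) and TAP1 (-0.031 to 0.031) between the compounds. Of 74 member results that passed, 59 kept their call with every library left out and 15 lost it in at least 1 case.

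Replicate numbers did not pair the libraries: same-numbered libraries had correlations of -0.057 to 0.12, and 1 of 9 libraries was closest to its own number in both other groups. With the replicate block 21 members were higher and 5 lower with rakicidin A, 18 and 12 with BE-43547A1, and 16 and 4 between the compounds. PSMB3 (0.17), PSMB6 (0.15) and PSMD13 (0.12), which did not pass in the main fit, then passed as higher with BE-43547A1. PSMG4 did not pass between the compounds (0.26). PSMB10 and PSMD9, at a few CPM, and PSMC5, whose DMSO replicate 3 was well above its fellows, had the widest intervals among the members. Changes of the size seen in PSMB10 and PSMD9 may go undetected in other low genes at this depth.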
